A study of Mus musculus with 11 samples.

Results

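A set of 10 genes of the JAK-STAT pathway, out of 21846 genes in the table, was followed through 11 RNA-seq libraries of mouse mammary carcinoma cell lines. They were chosen by symbol: the prolactin receptor Prlr, the kinases Jak1 and Jak2, the transcription factors Stat3, Stat5a and Stat5b, the feedback genes Socs2, Socs3 and Cish, and the tyrosine phosphatase Ptpn1. All 10 passed the filter on low counts, 9 of them with at least 20 counts in every library. Prlr reached the filter's minimum of 0.486 CPM in too few HER2-negative libraries to pass without the HER2-positive ones, so its place among the tested genes already required a difference. Its values are therefore a description, with no p-value, and it stands outside the counts of called genes.

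The lines came from mammary tumors of virgin female FVBhuHER2 mice, which carry human HER2 as a transgene. MamBo89 (HER2 stable, from tumor A) gave 4 libraries, namely replicate 1 (untreated, coded AG3 in the labels and taken as the clone that the study's methods list), replicate 2 (untreated), replicate 3 (30 µg/ml trastuzumab for 30 days, then 30 days without it) and replicate 4 (trastuzumab for 60 days). MamBo43 (HER2 labile, from tumor B) gave 1 untreated library and 2 libraries named MamBo43 TRT, replicate 1 after 30 days with trastuzumab and 30 without and replicate 2 after 60 days with it. MamBo38 (HER2 loss) was established from a tumor that grew after injection of MamBo43 cells and gave 4 libraries, 2 untreated (replicates 1 and 2), 1 after 30 days with and 30 days without trastuzumab (replicate 3) and 1 after 60 days with it (replicate 4). Trastuzumab is an antibody against human HER2. By the study's methods, MamBo38 and MamBo43 TRT are HER2-negative (6 libraries) and MamBo89 and untreated MamBo43 are HER2-positive (5 libraries). All lines grew in DMEM with fetal bovine serum, bovine pituitary extract and a serum extender. The labels carry 2 library codes of unstated meaning, 1 shared by MamBo38 replicates 1, 3 and 4 and the other by all remaining libraries. No label says that libraries of a group came from separate cultures, so p-values measure the spread between these libraries, which may be technical.

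Total counts ranged from 17040454 to 27127662 per library, and levels are given as CPM, the count scaled to the size of its library, after TMM scaling, a correction for differences in composition between libraries. A count of 3, used as the floor, was worth 0.113 to 0.179 CPM. The lines were checked against markers. The summed level of 14 mammary epithelial markers was 35.6 to 43.6 CPM in MamBo38, 535 to 2264 CPM in MamBo43 TRT, 4227 CPM in untreated MamBo43 and 3265 to 4611 CPM in MamBo89, and 11 of the 14 were under 1 CPM in every MamBo38 library. The 8 mesenchymal markers summed to 21159 to 41985 CPM in HER2-negative and 269 to 2387 CPM in HER2-positive libraries. Fn1 alone was at 15601 to 39734 CPM in the former and 113 to 2253 CPM in the latter. Twist1, with means of 49.6 and 41.5 CPM, was the only 1 of the 8 whose levels overlapped between the groups. Adgre1 and Cd3e were at 0 in every library and Ptprc close to it, Cd68 being the only immune marker above 1 CPM, and the endothelial and adipocyte markers summed to at most 0.782 and 0.113 CPM. Fewer cells of a type and less RNA per cell cannot be told apart in these bulk libraries. HER2 status also follows tumor of origin in part, since all 6 HER2-negative libraries and 1 of the 5 HER2-positive libraries come from tumor B.

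In the JAK-STAT pathway, a cytokine or hormone receptor without kinase activity of its own holds a Janus kinase, which phosphorylates the receptor and the STAT proteins it recruits. Phosphorylated STATs dimerize, enter the nucleus and bind DNA with a palindromic core. In the mammary gland, prolactin acting through its receptor, JAK2 and STAT5 drives alveolar development and milk protein genes, and STAT3 downstream of LIF takes part in the involution that follows weaning. SOCS proteins and CIS, the product of Cish, are induced by STATs and in turn damp the receptor complex, which makes their RNA a common readout of STAT activity. RNA levels of the STAT genes themselves do not report phosphorylation, which was not measured by these libraries.

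Because the question was whether the feedback genes track the STAT genes, the start sites of the feedback genes were searched for the STAT core, TTCNNNGAA, which reads the same on both strands. The RefSeq promoter table (GRCm38.p6, 250 bases before to 50 after each start site) held 9 of the 10 genes in 13 windows, Socs2 being the missing entry. At least 1 window with the core was held by 2582 of all 27025 genes (9.55%) and by 3 of the 9, Cish, Socs3 and Prlr. The windows of Cish and Socs3 are printed 5′ to 3′ with each match in capitals.
Cish, chr9:107296409-107296708, plus strand: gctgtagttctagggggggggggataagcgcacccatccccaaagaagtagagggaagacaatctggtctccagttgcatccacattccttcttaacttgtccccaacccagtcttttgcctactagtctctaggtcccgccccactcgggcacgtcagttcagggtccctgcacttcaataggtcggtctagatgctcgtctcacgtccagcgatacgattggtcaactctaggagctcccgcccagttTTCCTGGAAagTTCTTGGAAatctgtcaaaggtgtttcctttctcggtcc
Socs3, chr11:117969317-117969616, minus strand: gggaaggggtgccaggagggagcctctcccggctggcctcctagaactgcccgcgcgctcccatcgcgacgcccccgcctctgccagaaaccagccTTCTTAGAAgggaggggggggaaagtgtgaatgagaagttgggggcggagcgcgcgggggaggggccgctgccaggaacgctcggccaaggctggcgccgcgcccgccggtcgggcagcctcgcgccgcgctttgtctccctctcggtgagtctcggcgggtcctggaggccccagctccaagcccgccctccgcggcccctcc
Cish held 2 matches that do not overlap, TTCCTGGAA beginning at the annotated start site and TTCTTGGAA beginning 11 bases after it. Socs3 held TTCTTAGAA beginning 154 bases upstream of its start site, and Prlr held TTCTAGGAA 110 bases upstream of the start site on chromosome 15 between 10223656 and 10223955, which is 1 of its 3 windows. These matches describe letters and say nothing of binding in these cells.

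The 3 STAT genes are neighbors. Stat5b (chr11:100780731-100850724, minus strand), Stat5a (chr11:100859351-100885169, plus strand) and Stat3 (chr11:100885098-100939540, minus strand) lie side by side on GRCm38, and Stat3 and Stat5a share 0.756% of the exonic bases of Stat3 on opposite strands. Of the windows of 75 bases, the read length, in the transcripts of each gene, Stat5a shared 5.12% and Stat5b 6.99% with each other, so reads from these stretches cannot be assigned by sequence alone. Cish shared 7.93% of its windows with the opposite-strand genes Gm17040 and Gm17041, and the library kit does not mark strand, so reads from Cish and these genes cannot be told apart there. For Socs2 the share was 3.16%, for Prlr 0.830%, and for Stat3, Jak1, Jak2, Socs3 and Ptpn1 it was 0%.

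**Figure D1:**
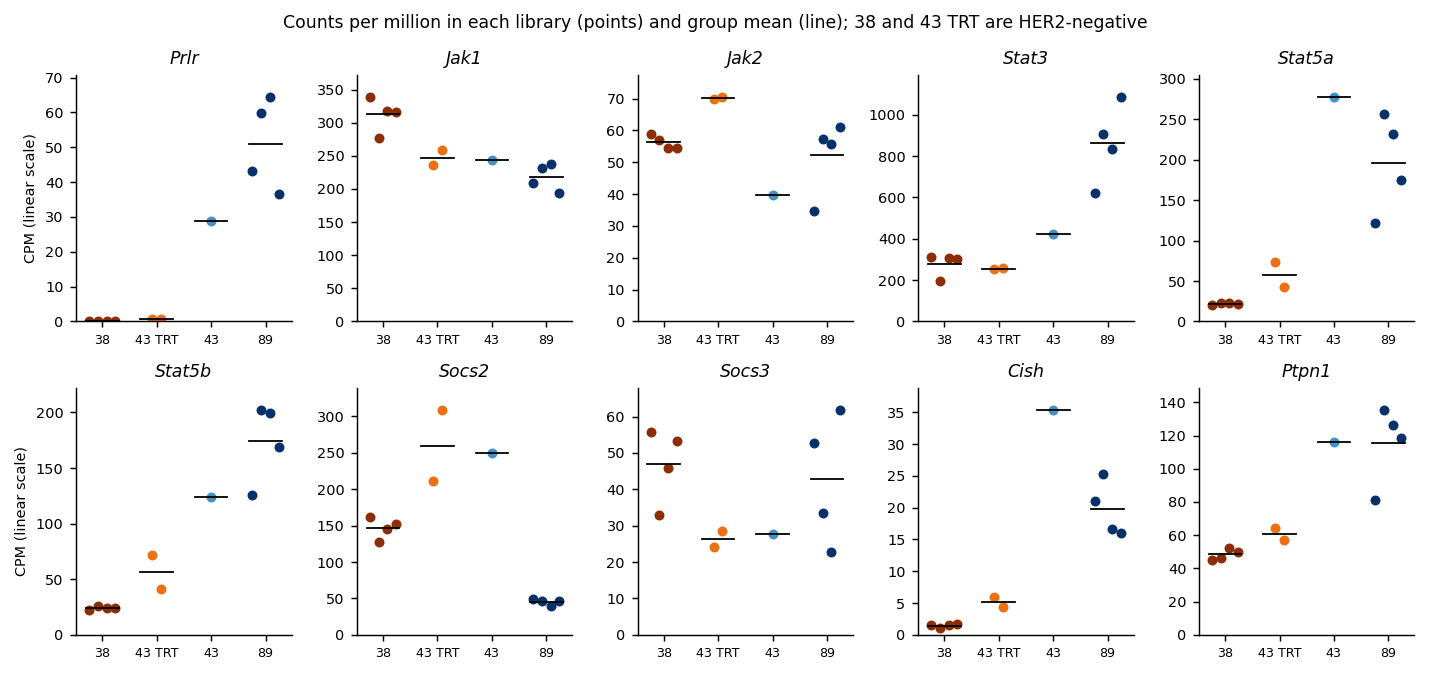
CPM of each of the 10 genes (vertical axis, linear and starting at 0) in each library (points) with the group mean (line), for MamBo38 (38), MamBo43 TRT (43 TRT), untreated MamBo43 (43) and MamBo89 (89). Prlr, Stat3, Stat5a, Stat5b, Cish and Ptpn1 were lower in all 6 HER2-negative than in all 5 HER2-positive libraries, whereas the Socs2 level of untreated MamBo43, 250.2 CPM, lay with those of the other tumor B libraries.

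The first comparison set the 6 HER2-negative against the 5 HER2-positive libraries, the contrast the study used for loss of HER2. With the thresholds of the study's methods, a gene was called at an adjusted p under 0.1 in the edgeR quasi-likelihood test if it also differed at least 2-fold. The 3 STAT genes, Cish and Ptpn1 were lower in the HER2-negative libraries and Socs2 was higher. Of the 9 genes other than Prlr 5 were called lower and 1 higher, where 13.8% and 11.8% of the 10389 genes that reached the filter's minimum in each group on its own were. Over all 12364 genes tested, 17.0% were called lower and 15.8% higher, 32.8% in all. The 5 called lower also did not overlap between the groups, which held for 34.9% of all genes tested. The median log2 fold change of the 9 was -1.14, and that of the 10389 genes was -0.04.

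Prlr, which binds prolactin and signals through JAK2, showed the widest range. It had 0 counts in all 4 MamBo38 libraries, 29.0 CPM in untreated MamBo43, 0.638 and 0.688 CPM in MamBo43 TRT replicates 1 and 2, and 43.3, 59.7, 64.5 and 36.6 CPM in MamBo89 replicates 1 to 4. The HER2-negative libraries all lay under 1 CPM and the HER2-positive ones at 29.0 CPM or above, with no overlap. The fitted difference on the log2 scale was -7.62. The Prlr RNA that remained in MamBo43 TRT rested on 13 and 18 counts.

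The Janus kinases showed no such split. Jak1, which pairs with gp130 and other receptors, had 339, 277, 318 and 316 CPM in MamBo38, 244 CPM in untreated MamBo43, 237 and 258 CPM in MamBo43 TRT and 209, 232, 238 and 193 CPM in MamBo89. The groups overlapped, MamBo38 being above all other libraries. Its log2 fold change of 0.38 (95% interval 0.11 to 0.65, edgeR adjusted p = 0.0217) was under the fold minimum. Jak2, the kinase of the prolactin and growth hormone receptors, had 59.0, 57.0, 54.5 and 54.4 CPM in MamBo38, 39.8 CPM in untreated MamBo43, 69.8 and 70.5 CPM in MamBo43 TRT and 34.7, 57.4, 55.9 and 61.2 CPM in MamBo89. The groups overlapped and the log2 fold change was 0.29 (95% interval -0.07 to 0.65, edgeR adjusted p = 0.157). Per kilobase of exon, Jak1 was 2.20 to 4.26 times as abundant as Jak2 across the 11 libraries, so neither kinase was missing from the lines without Prlr.

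Stat3, the transcription factor used by the IL-6 family, had 313, 197, 305 and 300.4 CPM in MamBo38, 421 CPM in untreated MamBo43, 255 and 256 CPM in MamBo43 TRT and 622, 905, 834 and 1085 CPM in MamBo89. Untreated MamBo43 lay between MamBo89 and the HER2-negative libraries, closer to the latter. Stat3 was called lower (log2 fold change -1.51, edgeR adjusted p = 2.53e-04), but a fit with tumor of origin as a covariate gave -0.64 (edgeR adjusted p = 0.123), and within tumor B it was -0.66 (edgeR adjusted p = 0.0978). Neither is a call.

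Stat5a and Stat5b, the pair of STATs that act below the prolactin receptor, were called lower in all 22 alternatives, the fits with tumor of origin as a covariate and within tumor B included. Stat5a had 19.9, 22.4, 23.0 and 21.5 CPM in MamBo38, 277 CPM in untreated MamBo43, 74.0 and 42.0 CPM in MamBo43 TRT and 122, 256, 231 and 175 CPM in MamBo89. On the log2 scale the change was -2.65, with a standard error (SE) of 0.39 (edgeR adjusted p = 2.04e-04). The order was MamBo38, MamBo43 TRT and then the HER2-positive libraries, with untreated MamBo43 highest. Stat5b had 22.0, 25.9, 24.5 and 23.7 CPM in MamBo38, 124 CPM in untreated MamBo43, 71.9 and 41.5 CPM in MamBo43 TRT and 126, 202, 199 and 169 CPM in MamBo89. On the same scale it changed by -2.23 (SE 0.33, edgeR adjusted p = 2.15e-04), and again no HER2-negative library reached a HER2-positive one.

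Set per kilobase of exon, the balance among the STATs also differed between the lines. The level of Stat3 per kilobase was 6.57 to 11.8 times that of Stat5a in MamBo38, 2.58 and 4.57 times in MamBo43 TRT, 1.14 times in untreated MamBo43 and 2.64 to 4.64 times in MamBo89. Stat5a per kilobase was below Stat5b in 10 of the 11 libraries, at 0.673 to 0.985 of its level, and above it only in untreated MamBo43, at 1.74 times. These ratios describe RNA, and no test was made of them.

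Among the feedback genes, Cish was the one with the pattern of the STAT5 genes. Its product CIS binds phosphorylated receptors of the prolactin and growth hormone type. Cish had 1.49, 1.12, 1.49 and 1.69 CPM in MamBo38, 35.3 CPM in untreated MamBo43, 5.99 and 4.36 CPM in MamBo43 TRT and 21.1, 25.4, 16.6 and 16.0 CPM in MamBo89. The order of the 4 groups was that of Stat5a, and the HER2-negative and HER2-positive libraries did not overlap. The log2 difference was -3.08 (SE 0.48, edgeR adjusted p = 3.13e-04).

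Socs2, whose product restrains growth hormone signaling and which is also a STAT5 target in several tissues, was lowest in the tumor A line. It had 162, 127, 145 and 152 CPM in MamBo38, 250.2 CPM in untreated MamBo43, 211 and 309 CPM in MamBo43 TRT and only 48.5, 45.8, 39.4 and 46.9 CPM in MamBo89. All 7 tumor B libraries, with or without HER2, lay above all 4 MamBo89 libraries. Socs2 was called higher in HER2-negative libraries (log2 fold change 1.10, edgeR adjusted p = 0.0919), but its 95% interval, -0.03 to 2.22, holds 0. The estimate was -0.44 with tumor of origin as a covariate (edgeR adjusted p = 0.411), -0.47 within tumor B (edgeR adjusted p = 0.471) and 2.03 without the untreated MamBo43 library. Socs2 was past the threshold in 6 of the 22 alternatives run.

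Socs3, which binds gp130 and JAK and is the usual feedback gene of STAT3, had 55.7, 32.9, 45.9 and 53.2 CPM in MamBo38, 27.8 CPM in untreated MamBo43, 24.2 and 28.5 CPM in MamBo43 TRT and 52.8, 33.5, 22.8 and 61.8 CPM in MamBo89. Libraries of every HER2 status were spread over the same range. The log2 fold change was 0.01 (95% interval -0.66 to 0.68, edgeR adjusted p = 0.977).

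Ptpn1 encodes PTP1B, a phosphatase that acts on JAK2, STAT5 and growth factor receptors and belongs to the negative side of the pathway. It had 45.1, 46.4, 52.0 and 50.1 CPM in MamBo38, 116 CPM in untreated MamBo43, 64.0 and 57.0 CPM in MamBo43 TRT and 81.2, 135, 127 and 119 CPM in MamBo89. The groups did not overlap, and untreated MamBo43 stood among the MamBo89 libraries. It changed by -1.14 on the log2 scale (SE 0.14, edgeR adjusted p = 8.01e-05), and it was past the threshold in all 22 alternatives.

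**Figure D2:**
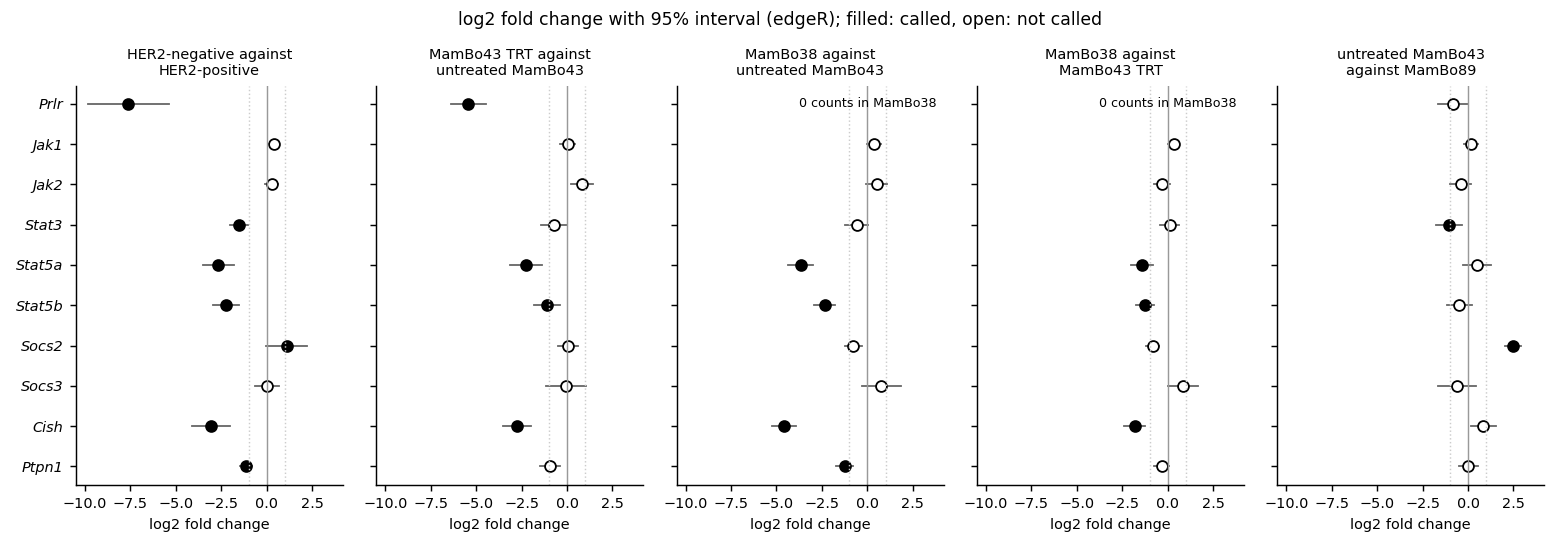
log2 fold change (horizontal axis, first group over second) with its 95% interval for the 10 genes in 5 comparisons, with filled points for called genes and dotted lines at the fold minimum of 1 in either direction. Stat5a, Stat5b and Cish are filled on the negative side in the first 4 panels, and Socs2 is at 2.47 in the last. Prlr is a description and not a call, although drawn filled for HER2-negative against HER2-positive and for MamBo43 TRT against untreated MamBo43. It is left out where MamBo38 had 0 counts.

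Loss of HER2 under trastuzumab in culture was then examined by setting the 2 MamBo43 TRT libraries against the untreated MamBo43 library in a fit of all 4 groups. This and the next comparison share that untreated library, which stands alone and is assumed to vary like the libraries of the other groups. Cish, Stat5a and Stat5b were lower, so 3 of the 9 genes other than Prlr were called, where 29.1% of all 13782 genes tested were. The log2 changes were -2.77 for Cish (edgeR adjusted p = 4.21e-04), -2.25 for Stat5a (edgeR adjusted p = 0.00226) and -1.12 for Stat5b (edgeR adjusted p = 0.0230), and Prlr stood at -5.43. The Stat5b call was lost without MamBo43 TRT replicate 2, with a log2 change of -0.78 (edgeR adjusted p = 0.115). Ptpn1 stood at -0.93 (edgeR adjusted p = 0.0189), under the fold minimum, and Stat3 at -0.71 (edgeR adjusted p = 0.120). Jak2 was at 0.82 (edgeR adjusted p = 0.0505), Socs2 at 0.06 (95% interval -0.47 to 0.59), Jak1 at 0.03 (95% interval -0.40 to 0.45) and Socs3 at -0.07 (95% interval -1.17 to 1.03).

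Epithelial markers moved in the same 2 libraries, not all in 1 direction, and their part in these differences was not tested. The keratin genes Krt14 and Krt5 were higher. Krt14 was at 2.40 CPM in untreated MamBo43 and at 9.91 and 111 CPM in MamBo43 TRT replicates 1 and 2. Krt5 was at 0, 0.0491 and 3.82 CPM in the same libraries. Others were lower. As a percent of the untreated MamBo43 level, MamBo43 TRT replicates 1 and 2 held 25.0% and 4.83% of Epcam, 25.9% and 9.24% of Cdh1, 73.1% and 9.97% of Krt8 and 88.5% and 20.7% of Esrp1. For the signaling genes the same 2 libraries held 26.7% and 15.1% of Stat5a, 58.2% and 33.6% of Stat5b, 16.9% and 12.3% of Cish and 2.20% and 2.38% of Prlr. Prlr thus stood lower than Epcam, Cdh1, Krt8 and Esrp1 in both libraries. Elf5, a transcription factor of luminal and alveolar cells that lies below the prolactin receptor in the mammary gland, was at 0.466% and 1.82%. Gata3, which marks luminal cells as well, was at 75.6% and 74.8%.

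**Figure D3:**
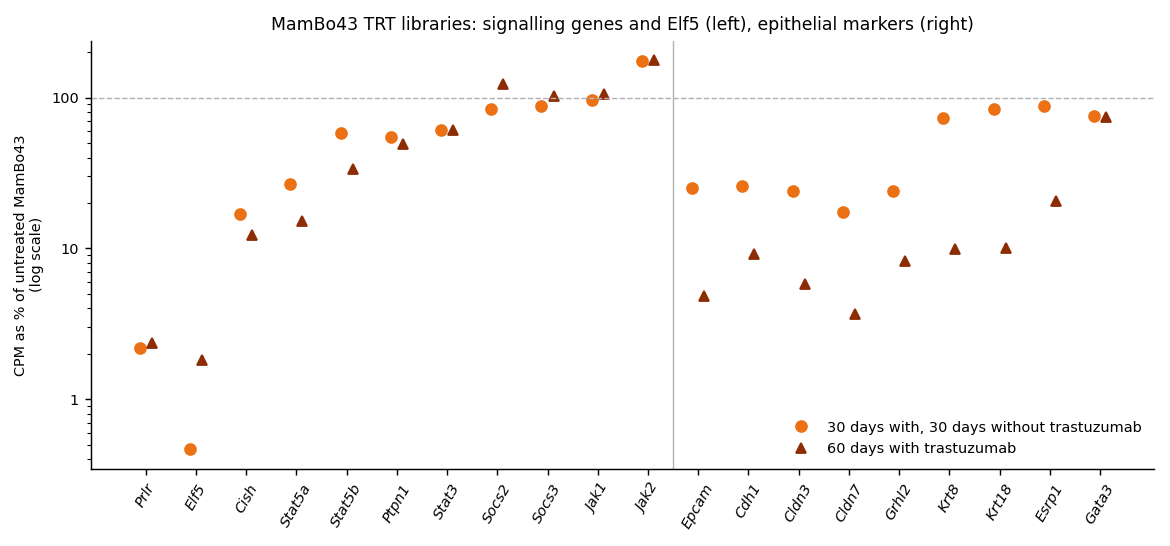
CPM in the 2 MamBo43 TRT libraries as a percent of the untreated MamBo43 library (vertical axis, log scale, dashed line at 100%), for the 10 signaling genes and Elf5 on the left and 9 other epithelial markers on the right. Markers low in untreated MamBo43 are left out, among them Krt14, which was higher in both treated libraries, and Cldn4, which was lower. Prlr and Elf5 lie under 3% in both libraries, while Socs2, Socs3 and Jak1 lie between 84.2% and 123%.

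MamBo38 represents loss of HER2 in vivo from the same tumor of origin. Against untreated MamBo43, 4 of the 9 genes other than Prlr were called, each lower, where 35.9% of all genes tested were called. The log2 changes were -4.59 for Cish (edgeR adjusted p = 1.64e-06), -3.67 for Stat5a (edgeR adjusted p = 1.13e-05), -2.36 for Stat5b (edgeR adjusted p = 6.29e-05) and -1.26 for Ptpn1 (edgeR adjusted p = 0.00115). Prlr, at 0 counts in MamBo38, was at least 192-fold lower when 3 counts per library are taken as the floor. Socs2 stood at -0.76 (edgeR adjusted p = 0.0132), under the fold minimum, and Socs3 at 0.76 (95% interval -0.30 to 1.82, edgeR adjusted p = 0.225). Stat3 stood at -0.59 (95% interval -1.23 to 0.05, edgeR adjusted p = 0.128).

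The 2 kinds of HER2-negative cells were then set against each other. Cish, Stat5a and Stat5b, 3 of the 9 genes other than Prlr, were called lower in MamBo38 than in MamBo43 TRT, with 20.4% of all genes tested called. The log2 changes were -1.82 for Cish (edgeR adjusted p = 7.52e-04), -1.42 for Stat5a (edgeR adjusted p = 0.00433) and -1.24 for Stat5b (edgeR adjusted p = 0.00297), and Prlr was at least 4.40-fold lower. Without MamBo43 TRT replicate 1, the Stat5a and Stat5b log2 fold changes were -0.97 and -0.80 and neither was called. Socs2 stood at -0.82 (edgeR adjusted p = 0.00474), under the fold minimum, Socs3 at 0.83 (edgeR adjusted p = 0.112), Stat3 at 0.12 (95% interval -0.40 to 0.65) and Ptpn1 at -0.32 (95% interval -0.73 to 0.08). The 2 groups also differed in epithelial markers, of which 12 of 13 tested were lower in MamBo38. Their part in the result was not tested.

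Between the HER2-positive lines, untreated MamBo43 differed from MamBo89 in 2 of the 9 genes other than Prlr, where 18.9% of all genes tested were called. Socs2 was 2.47 higher on the log2 scale in MamBo43 (SE 0.19, edgeR adjusted p = 1.69e-05), and Stat3 was lower, with a log2 change of -1.03 (edgeR adjusted p = 0.0489). The Stat3 call was lost in 4 of 16 alternatives, among them the fit without MamBo89 replicate 4 (log2 fold change -0.91, edgeR adjusted p = 0.0687) and the fit without MamBo43 TRT replicate 1 (log2 fold change -0.98, edgeR adjusted p = 0.0844). Cish was at 0.84 (edgeR adjusted p = 0.0813), under the fold minimum. Stat5a at 0.50 (95% interval -0.29 to 1.29) and Stat5b at -0.50 (95% interval -1.18 to 0.19) did not pass the test. The log2 difference of Prlr was -0.82.

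Trastuzumab was also given to MamBo89, which kept HER2, and to MamBo38, which was HER2-negative before treatment. In 2 treated against 2 untreated libraries, edgeR called 0 genes in either line (186 of 12046 genes in MamBo89 and 503 of 11861 in MamBo38 at an unadjusted p under 0.05, and 3 and 4 calls with DESeq2), and none of the 10 genes was among them. In MamBo89, 1 of the 2 untreated libraries was AG3, taken as the clone. In MamBo38 the 2 untreated libraries carried different codes, and both treated ones carried the code of replicate 1. Leaving out replicate 2 of MamBo89 or replicate 1 of MamBo38 raised the count over all genes. Each of these fits rests on 1 untreated library, AG3 or the one of the other code. Trastuzumab cannot be told apart there from clone or code. The log2 fold changes of the 10 genes ran from -0.52 (Cish) to 0.34 (Jak2) in MamBo89. For the 9 genes tested in MamBo38 they ran from -0.09 (Jak2) to 0.28 (Cish). By an interaction test at an adjusted p under 0.1, the effect in MamBo43 differed from that in MamBo89 for Cish, Stat5a, Ptpn1 and Stat5b, 4 of the 9 genes other than Prlr, where 25.7% of all genes differed. It differed from that in MamBo38 for Cish, Stat5a and Ptpn1, which is 3 of the 9 and near the 22.1% of all genes. Prlr, at 0 counts in MamBo38, could not be tested against that line.

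Whether the feedback genes tracked the STATs was asked directly, through the log2 ratio of each feedback gene to each STAT gene in the same library (log2 of CPM plus 0.5). A pair that moves in proportion keeps its ratio. The difference in mean ratio between the 6 HER2-negative and 5 HER2-positive libraries was tested by an exact two-sided permutation test over the 462 ways of choosing 6 of 11, adjusted over the 9 pairs. The smallest p this test can give is 0.00216. It treats all libraries as exchangeable, although they share lines and tumors of origin, so its p-values do not measure the spread between lines.

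Cish to Stat5a was the only pair of the 9 whose ratio did not pass. It lay between -3.82 and -3.13 in the 6 HER2-negative libraries and between -3.76 and -2.51 in the 5 HER2-positive libraries, a mean difference of -0.26 (exact permutation test, adjusted p = 0.281), although Cish itself ranged from 1.12 to 35.3 CPM. With a pseudocount of 0.1 in place of 0.5 this pair passed as well, at -0.48 (exact permutation test, adjusted p = 0.0844), and it also passed without MamBo89 replicate 3, at -0.41 (exact permutation test, adjusted p = 0.0714). Leaving out each library in turn moved it between -0.41 and -0.09. The Cish to Stat5b ratio differed by -0.69 (exact permutation test, adjusted p = 0.0463). It did not pass with a pseudocount of 1 (exact permutation test, adjusted p = 0.149), nor without the untreated MamBo43 library, at -0.43 (exact permutation test, adjusted p = 0.123), nor in the libraries of the more common code alone, at -0.70 (exact permutation test, adjusted p = 0.241). Relative to Stat3, Cish was lower by -1.57 in HER2-negative libraries (exact permutation test, adjusted p = 0.0278), which in the libraries of that code was -0.95 (exact permutation test, adjusted p = 0.241).

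Across the HER2 split, the ratio of each SOCS gene to each STAT gene differed, with tumor of origin not taken into account. Socs2 rose relative to Stat5a by 4.22 and to Stat5b by 3.79 (exact permutation test, adjusted p = 0.00649 for each), and relative to Stat3 by 2.92 (exact permutation test, adjusted p = 0.0162). Socs2 to Stat3 was -1.07 to -0.62 in MamBo38, -0.75 in untreated MamBo43 and -0.28 and 0.27 in MamBo43 TRT, against -4.52 to -3.67 in MamBo89. Untreated MamBo43, which is HER2-positive, thus lay within the MamBo38 range for this pair, and every tumor B library lay above every MamBo89 library. Socs3 rose relative to Stat3 by 1.50 (exact permutation test, adjusted p = 0.00649), to Stat5a by 2.80 and to Stat5b by 2.37 (exact permutation test, adjusted p = 0.0162 for each). In the libraries of the more common code the last 2 were 1.91 and 1.52 (exact permutation test, adjusted p = 0.107 for each). Socs3 itself did not differ detectably, so these ratios carry the difference of the STAT genes. Since the 3 STAT genes are lower in the same libraries, the 9 ratios are not independent.

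**Figure D4:**
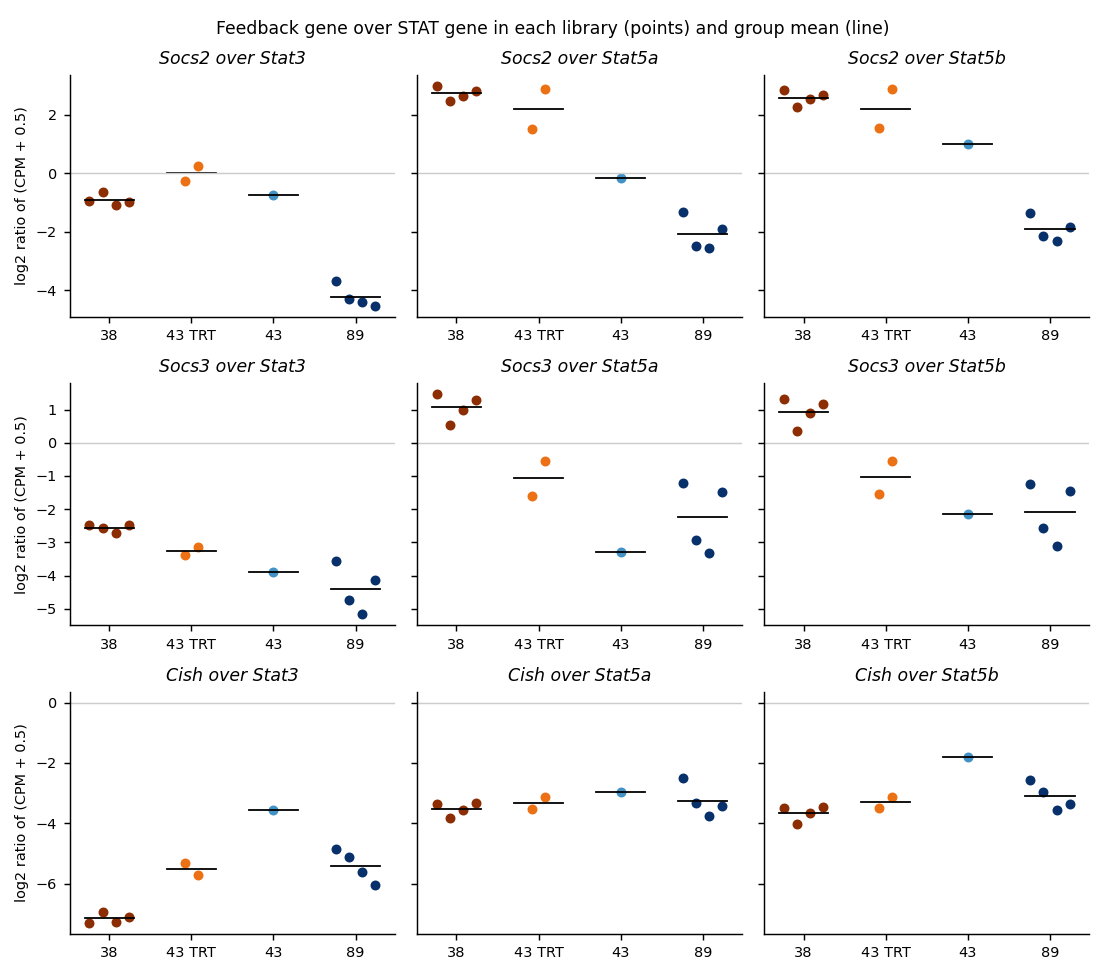
log2 ratio of (CPM + 0.5) of each feedback gene to each STAT gene (vertical axis, shared within a row) in each library (points), with the group mean (line). Cish over Stat5a stays between -3.82 and -2.51 in all 11 libraries, while Socs2 over Stat5a runs from -2.54 to 2.996.

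The likeness of profiles was also described across all 11 libraries, by the root mean square difference between the mean-centered log2(CPM + 0.5) profiles of 2 genes, where 0 means the same profile. Of the 45 pairs of the 10 genes, Jak1 and Jak2 were closest (0.34), followed by Stat5a and Cish (0.35), Stat5a and Stat5b (0.37) and Stat3 and Ptpn1 (0.41). Socs3 was 0.88 from Stat3, and Socs2 was 2.21 from Stat5a and 2.08 from Stat5b. The libraries share lines, so these values are a description. Among the 10411 genes with a mean of at least 5 CPM, the profiles most like those of the STAT and receptor genes were Zfp532 (0.07), Rfxank (0.15) and Lcmt2 (0.16) for Stat3, Arhgap26 (0.27), Ccdc120 (0.28) and Ntf5 (0.30) for Stat5a, Fam83h (0.20), Plpp6 (0.21) and Efnb1 (0.22) for Stat5b, and Mboat2 (0.46), Elf5 (0.49) and Pcsk5 (0.51) for Prlr. The median over all these genes was 0.94, 1.55, 1.33 and 3.09 for the same 4 genes.

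The rest of the pathway was described from lists in the HER2-negative against HER2-positive comparison. Genes that did not reach the filter's minimum in each group on its own are given by their values alone, as Prlr was, and the list counts are read against 11.8% called higher and 13.8% called lower among all genes that did. Of 18 cytokine ligands 8 were tested and 5 reached that minimum, of which 1 was higher and 2 lower. Il6, the ligand of gp130 that activates STAT3, was at 4.97 to 59.3 CPM in MamBo38, 0.197 CPM in untreated MamBo43, 13.5 to 39.8 CPM in MamBo43 TRT and 0.0485 to 1.28 CPM in MamBo89, a log2 difference of 5.69. Like it, Csf3 (-3.72) and Tslp (-1.74) did not reach the minimum in each group. Clcf1, another ligand of the family, was called higher (1.21), whereas Ctf1 (-3.04) and Lif (-1.06) were called lower. Lif was not called once tumor of origin was a covariate (-0.54), and the sign of Tslp turned within tumor B (1.36). Prl had 0 counts in every library and Osm at most 3, so prolactin RNA was not detected in the lines.

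Receptors of these ligands differed in both directions. Of 22 cytokine receptors 17 were tested and 15 reached the minimum in each group, of which 4 were higher and 5 lower, with a median log2 fold change of -0.50. Il6st, which encodes gp130, was at 365 to 495 CPM in MamBo38, 597 to 711 CPM in MamBo43 TRT, 198 CPM in untreated MamBo43 and 85.6 to 181 CPM in MamBo89, a log2 change of 1.78 (edgeR adjusted p = 1.17e-04). Il6ra, its partner for IL-6, was higher by 1.38, while Lifr (-2.94) and Il13ra1 (-2.08) were lower. Il2rg stood at 4.91 and Cntfr at -4.78, neither of which reached the minimum in each group. Il6st and Il6ra were therefore higher and Lifr lower in the HER2-negative libraries, the Il6ra levels overlapping between the groups. The Il6ra call was lost in 3 of 22 alternatives, among them library code as a covariate (0.84). Il2rg stood at 5.82 with tumor of origin as a covariate and at 5.80 within tumor B, whereas the sign of Cntfr turned within tumor B (1.99). Osmr stood at -0.56 and was not called. Ghr, the growth hormone receptor that also uses JAK2 and STAT5, was at 49.3 to 55.9 CPM in MamBo38, 122 to 217 CPM in MamBo43 TRT, 89.4 CPM in untreated MamBo43 and 12.4 to 28.4 CPM in MamBo89. It was called higher (1.32, edgeR adjusted p = 0.0671), but within tumor B its log2 fold change was 0.01, and, as with Socs2, every tumor B library lay above every MamBo89 library.

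Among the other kinases and STATs, Jak3, the kinase that pairs with the common gamma chain encoded by Il2rg, was called lower (-1.03), a call lost in 7 of 22 alternatives. Stat6, the factor of IL-4, stood at 0.43 and was not called. Of 14 further inhibitors, all tested, 13 reached the minimum in each group, of which 0 were higher and 2 lower in the edgeR test. Socs1, which did not, was at 3.13 to 5.40 CPM in MamBo38 and 0.277 to 1.27 CPM in MamBo89, a log2 difference of 2.43. The phosphatases Ptpn6 (-3.12) and Ptpn2 (-1.23) were lower, the latter at -0.35 and not called once tumor of origin was a covariate.

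Genes linked to the STATs in the mammary gland were listed as background for the 10. Of 18 genes linked to STAT5, 11 were tested and 6 reached the minimum in each group, of which 3 were called lower and the other 3 were not called, with a median of -0.96. The 3 were the casein gene Csn3 (-7.33), Cebpb (-1.17) and Ccnd1 (-1.15), named after their values were seen. Cebpb and Ccnd1 overlapped between the groups. Cebpb was at 97.6 CPM in untreated MamBo43, within the 64.7 to 124 CPM of the HER2-negative libraries, and at 211 to 325 CPM in MamBo89. Ccnd1 was at 576 CPM in untreated MamBo43 and 743 CPM in MamBo38 replicate 2. Csn1s1, which encodes a milk casein, was at 0 to 0.0596 CPM in MamBo38, 0.245 to 1.19 CPM in MamBo43 TRT, 33.6 CPM in untreated MamBo43 and 104 to 371 CPM in MamBo89, a log2 difference of -9.61. Elf5 (-8.80) and Csn1s2a (-8.55) were next, and these 3 genes passed the filter only with the HER2-positive libraries, which required a difference. Casein genes and Elf5 are also markers of the luminal alveolar state, and the epithelial markers moved with the same libraries. Of 14 genes linked to STAT3, 12 were tested and 9 reached the minimum in each group, of which 4 were higher and 0 lower in the edgeR test, with a median of 0.66. Ctsl (4.05), Timp1 (3.44) and Ctsb (2.14) were higher, 2 of them lysosomal cathepsins, whereas Igfbp5 (-8.77), Hp (-5.10) and Lrg1 (-4.86) passed the filter only with the HER2-positive libraries. Hp was at 5896 CPM in untreated MamBo43 and at 86.2 to 192 CPM in MamBo89, and its log2 difference was -1.74 without the untreated MamBo43 library.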

How the data were processed

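RNA-seq was run on 11 libraries of MamBo mammary carcinoma lines. From total RNA, the authors made TruSeq libraries, read 75 nucleotides in single-end mode and used STAR 2.5 and RSEM 1.3.0 against mm10, per the labels and the methods. The deposited table holds counts per gene that are not normalized, and every value was a whole number. The annotation used for counting was not given in the sources used here.

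Counts were tested with edgeR 4.0.16 (R 4.3.3): filterByExpr (min.count 10, min.total.count 15), TMM scaling, glmQLFit and glmQLFTest, and Benjamini-Hochberg adjustment over all genes tested, with standard errors taken from the fold change and F value and 95% intervals from the fit's degrees of freedom. The first comparison used 2 groups, the next 4 a fit of 4 groups, and trastuzumab was tested within MamBo89 and MamBo38. After seeing the data, genes were also counted that reached the filter's CPM minimum in at least 5 libraries of each HER2 group on its own. Scripts were tested on simulated data. DESeq2 1.42.0, RLE size factors, other filters, a stricter threshold, covariates, subsets and leaving out each library were tried as alternatives. Exon lengths came from GENCODE M21. The 10 genes are named in full. From the other lists, genes fixed by name and, per list and direction, up to 3 called genes with the largest fold change are named, with the 3 most similar profiles for Stat3, Stat5a, Stat5b and Prlr, and marker genes beside the results they touch. The genes and lists were chosen with earlier results of these data known. Some items of the lists are not reported here.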

Additional observations from a re-analysis of the deposited data

Results flagged for a closer look

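In 39 checks of the 10 genes within groups of 4 to 6 libraries, 2 had a highest or lowest library set apart by more than Dixon's 95% limit, and chance gives about 1 in 20. Stat3 in MamBo38 replicate 2, the only MamBo38 library with the code of the other lines, was at 197 CPM, with the nearest of the other 3 at 300.4 CPM. Socs2 in untreated MamBo43 was at 250.2 CPM, with the nearest of the other HER2-positive libraries at 48.5 CPM. It is the only HER2-positive library of tumor B.

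The effect of trastuzumab differed between lines in an edgeR interaction test over all 11 libraries. For MamBo43 minus MamBo89 the difference of log2 fold changes was -5.39 for Prlr, -2.25 for Cish (edgeR adjusted p = 0.0120), -2.35 for Stat5a (edgeR adjusted p = 0.0291), -1.11 for Ptpn1 (edgeR adjusted p = 0.0648) and -1.28 for Stat5b (edgeR adjusted p = 0.0892). For MamBo43 minus MamBo38 it was -3.06 for Cish (edgeR adjusted p = 0.00438), -2.33 for Stat5a (edgeR adjusted p = 0.0314) and -1.10 for Ptpn1 (edgeR adjusted p = 0.0727). In each of these the treated MamBo43 libraries were lower than the untreated one, which is 1 library. Of all 13782 genes tested, 3538 (25.7%) and 3046 (22.1%) differed at an adjusted p under 0.1 in the 2 interactions.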

How the results depend on the processing

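No paired analysis was possible because the labels carry no replicate numbers. The log2 fold changes of Stat5a, Stat5b, Cish and Ptpn1 in HER2-negative against HER2-positive libraries kept direction and threshold in all 22 alternatives. Signs turned for genes near 0 or tied to tumor of origin: with tumor as a covariate and within tumor B, the log2 fold changes were -0.44 and -0.47 for Socs2, -0.0311 and -0.0602 for Stat6, 1.39 and 1.36 for Tslp and 2.03 and 1.99 for Cntfr. Socs3 was at -0.48 with library code as a covariate and -0.46 in the libraries of the more common code alone, and at -0.14 to 0.22 when libraries were left out in turn. In MamBo43 TRT against untreated MamBo43, Jak1 was at -0.000840 with DESeq2 and -0.000928 with RLE size factors, and leaving out libraries gave -0.0378 to 0.0642 for Jak1, -0.19 to 0.0178 for Socs3 and -0.24 to 0.28 for Socs2. In untreated MamBo43 against MamBo89, leaving out libraries gave -0.0745 to 0.0928 for Ptpn1, and the count of the 10 genes called was 1 with only the libraries of both groups, 1 with untreated libraries only and 1 to 2 when libraries were left out. Among feedback pairs, 4 of 9 passed in that code alone, where fewer libraries remain. The cause of the other changes was not tested. Over all genes, the first comparison called 2597 of 10284 genes tested when every library needed 10 counts, against 4052 of 12364. Untreated MamBo43 against MamBo89 called 1697 of 12945 and 952 of 12867 genes tested in the same 2 subsets, against 2604 of 13782. Leaving out an untreated library raised the trastuzumab calls over all genes in MamBo89 and in MamBo38, from 0 in full. Each such fit rests on 1 untreated library. In MamBo89 without replicate 2 it is AG3, and in MamBo38 without replicate 1 the only one of the more common code. Untreated MamBo43 is 1 library, trastuzumab was tested on 2 treated and 2 untreated libraries in the other lines, and Prlr rests on 0 to 18 counts in HER2-negative libraries.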

Other observations

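A pair of libraries stood at the edge of their groups in several of the 10 genes. MamBo89 replicate 1, the AG3 library, was the lowest of the 4 MamBo89 libraries for Stat3 (622 CPM), Stat5a (122 CPM), Stat5b (126 CPM), Jak2 (34.7 CPM) and Ptpn1 (81.2 CPM). MamBo38 replicate 2 was the lowest of the 4 MamBo38 libraries for Stat3 (197 CPM), Jak1 (277 CPM), Socs2 (127 CPM), Socs3 (32.9 CPM) and Cish (1.12 CPM). Socs3 had the widest relative spread within MamBo89, from 22.8 CPM in replicate 3 to 61.8 CPM in replicate 4, which are both libraries of trastuzumab-treated cells.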
